A study of Mus musculus with 12 samples.

Results

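The genes described here are effectors with which gut tissue attacks or starves microbes: Nox1, Nos2, Cybb and Ncf4, which make or help to make reactive oxygen and nitrogen species, and Pla2g2a, Ltf, Defb1 and Defb14, which encode secreted antimicrobial proteins. They were taken by gene symbol from a list of 9, of which 8 were present in the table of 547 genes. The metal transporter Slc11a1, the remaining one, was not analysed here. Of the 8 genes, 5 reached a signal of 20 in at least 3 samples and were tested (Nox1, Nos2, Cybb, Ncf4, Pla2g2a), and 3 did not and are given as values (Ltf, Defb1, Defb14).

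The series measured total RNA from the terminal ileum of 12 female mice on a NanoString nCounter panel, which counts barcoded probes bound to RNA without amplification. There were 4 groups of 3 mice. WT_control and WT_STAT carried the C57 genotype label, and IL10_control and IL10_STAT the IL10 label, given in the study design as IL10 deficiency. The mothers of the control groups had received control cecal contents, and those of the STAT groups contents from an antibiotic-perturbed microbiota, so no pup was described as dosed itself. The labels gave no age, litter, mother or cage, so each n counts mice that may share a mother, and p-values measured the spread between these samples.

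Nox1 and Cybb encode related membrane enzymes, the NADPH oxidases, that pass electrons to oxygen and so make superoxide. Cybb is the catalytic subunit of phagocytes and needs cytosolic partners, one of which is p40phox, encoded by Ncf4, while Nox1 works mainly in the epithelium of the large bowel. Nos2, the inducible nitric oxide synthase, is switched on in macrophages and in epithelium by interferon-gamma and microbial products. Pla2g2a encodes a phospholipase that hydrolyses bacterial membranes and is made by Paneth cells of the small bowel, Ltf encodes lactoferrin, the iron-binding protein of neutrophil specific granules, and Defb1 and Defb14 encode beta-defensins, small cationic peptides of epithelia.

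Some facts of the whole series bear on every value below. Il10 was listed at 0 to 1.02 in the 6 C57-labelled samples and at 24.9 to 74.4 in the 6 IL10-labelled samples, which is against the genotype label in every sample. No source used here says where the probe binds, so a transcript of a disrupted allele could still be counted, and the samples are called IL10-labelled and C57-labelled throughout. Counts above background were 146691 to 365850 in the C57-labelled samples and 398625 to 717454 in the IL10-labelled samples, so depth and genotype label cannot be told apart. The small-bowel chemokine Ccl25 was present in every sample, but not at an even level. It was at 241 to 447 in the C57-labelled samples. In the IL10-labelled samples it was at 80.1 to 195, except for 676 in IL10_control 2. Ccl25 passed as lower in IL10_STAT than in WT_STAT (log2 difference -1.71 ± 0.57 SE, limma adjusted p = 0.0269). It did not pass between IL10_control and WT_control (-0.66 ± 0.57, adjusted p = 0.372).

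Nox1 had the largest signal of these genes in IL10-labelled ileum and a signal near the floor in C57-labelled ileum. It read 25.8, 10.6 and 32.7 in the WT_control samples and 52.5, 59.7 and 34.7 in the WT_STAT samples. It read 1936, 1564 and 1733 in the IL10_control samples and 2649, 2012 and 2344 in the IL10_STAT samples. The lowest IL10-labelled sample thus lay far above the highest C57-labelled one. The signal rose 79.5-fold under the control inoculum (log2 difference 6.31 ± 0.36 SE, n = 3 and 3, limma adjusted p = 7.10e-07) and 47.6-fold under STAT (5.57 ± 0.36, adjusted p = 1.73e-06). The table held 5 epithelial markers, whose summed signal ranged from 3871 to 14226 in the WT_control mice, 5868 to 10299 in the WT_STAT mice, 2889 to 4355 in the IL10_control mice and 1500 to 2156 in the IL10_STAT mice. Most of that sum was Abcb1a, a drug efflux pump (1035 to 12711), except in IL10_control 2, where it was 1191 of 2889. Under the control inoculum Abcb1a passed as lower (-1.79 ± 0.57 SE, limma adjusted p = 0.0177), the mucin gene Muc1 passed as higher (at least 2.57-fold, adjusted p = 0.00155) and 3 did not pass, where 3.94% of tested genes were lower. Under STAT 4 of the 5 passed as lower, against 11.6% of tested genes, and Muc1 did not pass. None of the 5 was at 0 in any sample, and their part in the Nox1 result was not tested. In bulk tissue, a change in the number of cells of a type and a change in RNA per cell cannot be told apart.

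The promoter of Nox1 is shown because this gene had the highest signal of the 8 in IL10-labelled samples and its window held a match to an NF-kappaB motif. Promoters came from RefSeq (GRCm38.p6) by gene symbol, as the 250 bases before and 50 after a start site, and 4 of the 9 listed genes had one (Nox1, Cybb, Ltf, Slc11a1). The motifs searched, on both strands, were GGG, any 2 bases and TTTCC for NF-kappaB, TTCNNNGAA for GAS, the interferon-gamma-activated site, and GAAA, any 2 bases and GAAA for ISRE, the interferon-stimulated response element. The window of Nox1 is chrX:134111805-134112104, minus strand, and lies inside the annotated span of the gene. Its 1 match, in capitals, is an NF-kappaB match on the minus strand of the printed sequence, at -91 to -82 from the start site. Of 32544 promoters of this length, 1.61% held such a match. The matches are descriptions of the letters and not binding data.
Nox1 promoter: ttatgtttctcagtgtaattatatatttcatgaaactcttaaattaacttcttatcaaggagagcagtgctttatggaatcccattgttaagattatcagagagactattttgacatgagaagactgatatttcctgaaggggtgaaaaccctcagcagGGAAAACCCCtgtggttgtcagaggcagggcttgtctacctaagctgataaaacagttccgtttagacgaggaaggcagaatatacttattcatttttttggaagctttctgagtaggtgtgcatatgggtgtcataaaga

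Nos2 followed the same genotype pattern and was the most uniform of the genes in the IL10_control mice. Its signal was 19.5, 14.7 and 22.6 in WT_control and 15.02, 20.9 and 7.79 in WT_STAT. It was 757, 704 and 732 in IL10_control and 551, 1009 and 792 in IL10_STAT, with no overlap between the genotype labels. The rise was 37.3-fold under the control inoculum (5.22 ± 0.34 SE, n = 3 and 3, limma adjusted p = 9.17e-07) and 52.3-fold under STAT (5.71 ± 0.34, adjusted p = 9.05e-07). The C57-labelled values rest on 6 to 22 counts above background per sample, so they are imprecise.

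Cybb and Ncf4, the phagocyte oxidase genes, were measurable in all 12 samples and rose less than Nox1 and Nos2 in the values of this fit. Cybb read 123, 133 and 70.6 in WT_control, 244, 202 and 168 in WT_STAT, 894, 1240 and 678 in IL10_control and 604, 907 and 882 in IL10_STAT. IL10-labelled samples were 8.59-fold higher under the control inoculum (3.10 ± 0.31 SE, n = 3 and 3, limma adjusted p = 1.35e-05) and 3.86-fold higher under STAT (1.95 ± 0.31, adjusted p = 0.000497). Ncf4 read 32.1, 58.3 and 38.6 in WT_control, 110, 85.7 and 54.5 in WT_STAT, 298, 319 and 175 in IL10_control and 171, 271 and 208 in IL10_STAT. It was 6.01-fold higher under the control inoculum (2.59 ± 0.34, adjusted p = 7.87e-05) and 2.63-fold higher under STAT (1.40 ± 0.34, adjusted p = 0.00600). For both genes, every IL10-labelled sample lay above every C57-labelled one, including the STAT groups.

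The signal ratio of 2 genes within a sample does not depend on how samples were scaled, although its size also reflects the probes, so only its change between groups can be read. Nox1 over Cybb was 0.0793 to 0.464 in the 6 C57-labelled samples and 1.26 to 4.38 in the 6 IL10-labelled samples, with no overlap. Nos2 over Cybb was 0.0464 to 0.320 in the former and 0.567 to 1.11 in the latter, also with no overlap. Ncf4 over Cybb was 0.262 to 0.546 and 0.235 to 0.334, so for the phagocyte pair the ranges overlapped. These ratios are given as descriptions with no test.

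The promoter of Cybb is shown because it held 3 matches to the interferon motif. Its window is chrX:9469275-9469574, minus strand, inside the annotated span of the gene. The ISRE matches, in capitals, lie at -168 to -159 and at -124 to -115 (minus strand of the printed sequence) and at -29 to -20 (plus strand), and do not overlap another match. Of the 32544 promoters, 3.45% held at least 1 ISRE match and 5 held 3 or more. GAS matches were found in 8.33% of promoters and in none of the 4 windows.
Cybb promoter: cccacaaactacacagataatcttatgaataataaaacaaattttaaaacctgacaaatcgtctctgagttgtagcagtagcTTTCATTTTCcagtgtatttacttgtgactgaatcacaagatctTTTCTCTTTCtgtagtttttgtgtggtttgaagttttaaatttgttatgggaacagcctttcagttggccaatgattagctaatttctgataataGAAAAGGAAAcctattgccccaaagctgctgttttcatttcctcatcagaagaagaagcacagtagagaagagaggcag

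Pla2g2a was nearly absent from C57-labelled ileum and abundant in IL10-labelled ileum. Its signal was 4.07, 0 and 8.01 in WT_control and 8.78, 1.46 and 9.20 in WT_STAT, which corresponds to 0 to 7 counts above background per sample. It was 665, 896 and 408 in IL10_control and 819, 967 and 700 in IL10_STAT. All C57-labelled values were under 20, so the rise is a lower bound against a signal of 20: at least 29.8-fold under the control inoculum (limma adjusted p = 1.36e-05, n = 3 and 3) and at least 39.2-fold under STAT (adjusted p = 4.55e-05). In the RefSeq annotation of the C57BL/6J genome this gene is classed as a transcribed pseudogene, and the C57BL/6 strain is known to carry a natural frameshift in it. No source used here names the strain on which the IL10-labelled mice were kept.

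Ltf, Defb1 and Defb14 stayed near or under the floor of 20 in nearly all samples, so the secreted antimicrobial genes among the 8 were represented at a clear level by Pla2g2a alone. Ltf was 2.26, 0 and 0 in WT_control, 0, 1.46 and 0 in WT_STAT, 5.08, 58.9 and 4.69 in IL10_control and 4.13, 7.24 and 4.02 in IL10_STAT. Only IL10_control 2 exceeded 20, with 53 counts above background against at most 7 in any other sample. With no filter on low values, Ltf had a limma adjusted p of 0.0148 under the control inoculum and 0.0786 under STAT. No size is given, since the C57-labelled samples held 0 to 2 counts above background and the other 2 IL10_control samples 3 each.

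Defb1 was 6.79, 14.7 and 3.64 in WT_control, 13.5, 9.23 and 6.37 in WT_STAT, 2.07, 10.2 and 6.14 in IL10_control and 11.2, 28.2 and 5.67 in IL10_STAT. IL10_STAT 2 was the 1 sample over 20, and all group ranges overlapped. Defb14 was 9.50, 0 and 0 in WT_control, 0, 13.1 and 19.1 in WT_STAT, 5.08, 8.02 and 1.81 in IL10_control and 9.76, 4.24 and 4.02 in IL10_STAT, with no sample at 20. A difference in either defensin was not detectable at this depth.

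**Figure D1:**
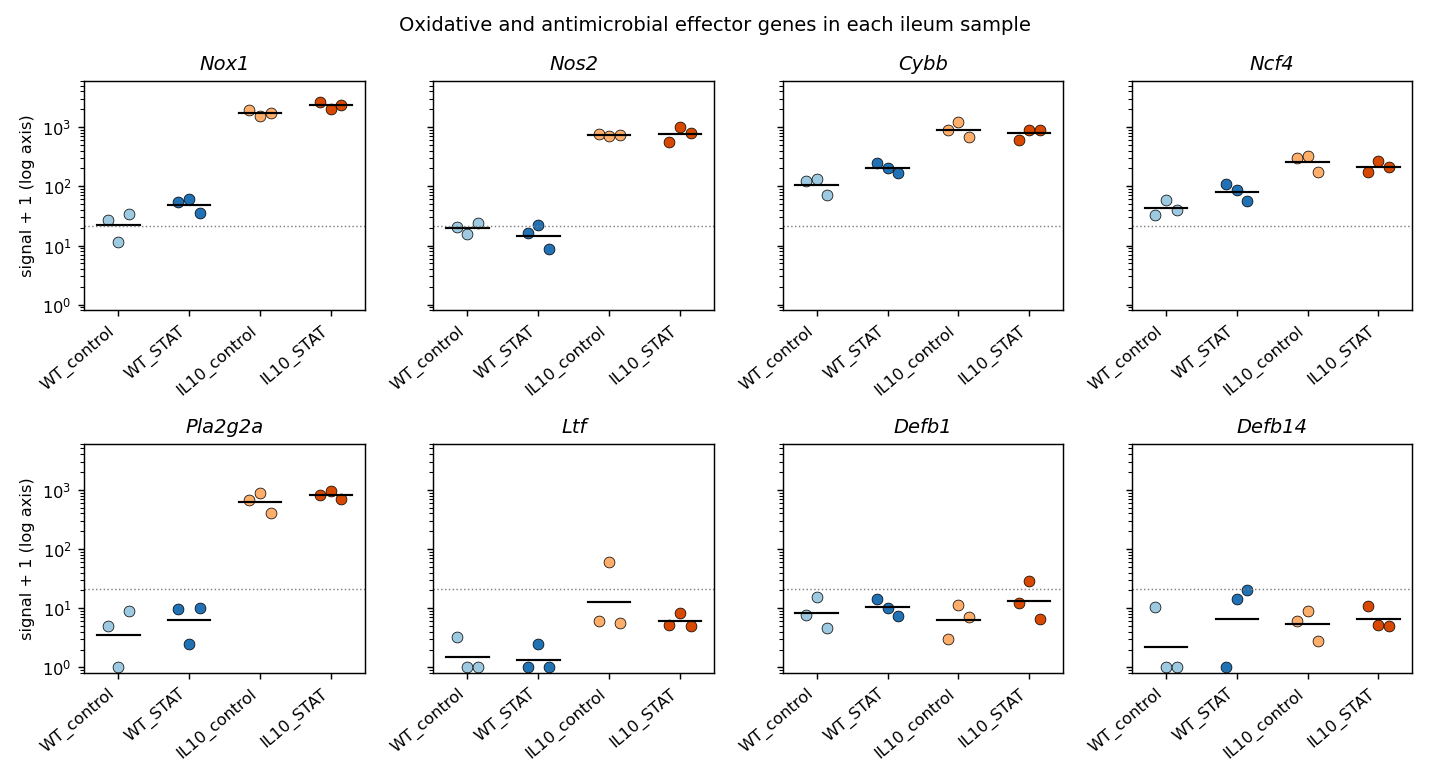
Signal + 1 of the 8 genes on a log axis, by group; each point is 1 mouse, the bar is the mean on the log scale (n = 3) and the dotted line marks a signal of 20. Nox1, Nos2, Cybb, Ncf4 and Pla2g2a separate by genotype label, and Ltf exceeds 20 only in IL10_control 2 (58.9).

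Over all 8 genes with no filter on low values, 6 passed as higher in IL10_control than in WT_control, against 46.3% of 547 genes, and 5 did under STAT, against 33.8%. The sixth was Ltf, described above. With the filter, the 5 tested genes passed in both comparisons, against 53.6% and 40% of the 457 tested genes. That count is partly fixed by the filter, because Pla2g2a reached 20 in IL10-labelled samples alone, and Nos2 in 2 of the 6 C57-labelled samples. The groups did not overlap for the same 5 genes, which held upwards for 56% of tested genes under the control inoculum and 47.3% under STAT. The median log2 difference of all tested genes was 1.01 and 0.50, and Cybb (3.10 and 1.95) and Ncf4 (2.59 and 1.40), which were over 20 in all 12 samples, lay above it in both comparisons.

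Scaling changed the sizes but not these calls. Of the genes called under the control inoculum 93.2% were higher in the deposited scaling, 45.7% with every sample set to the same median and 40% after quantile normalization. Under STAT these shares were 77.5%, 48.4% and 43.2%. With median centring, the log2 differences under the control inoculum were 5.14 for Nox1, 4.05 for Nos2, 1.93 for Cybb and 1.42 for Ncf4. Under STAT they were 5.05, 5.19, 1.43 and 0.87. These 4 genes and Pla2g2a passed in both comparisons in limma's test, also with quantile normalization.

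**Figure D2:**
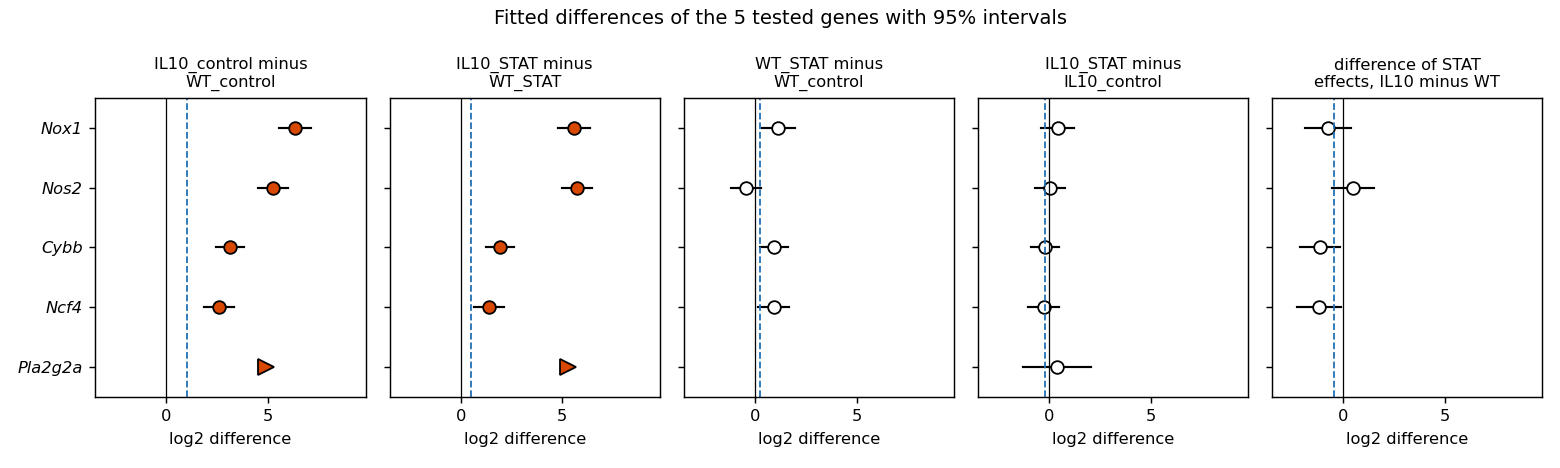
Fitted log2 differences of the 5 tested genes in the 5 comparisons, with 95% intervals; triangles are lower bounds for Pla2g2a against a signal of 20, which is left out of the panels that rest on a change within the C57-labelled samples; filled points passed at an adjusted p under 0.05 and the dashed line is the median of the 457 tested genes. All 5 genes pass in both genotype comparisons (log2 1.40 to 6.31 without Pla2g2a) and 0 pass in the comparisons of STAT with control.

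Within the IL10_control group the neutrophil markers spread more than Nox1 or Nos2. In the IL10_STAT group they spread more than Nox1, but several did not spread more than Nos2. Over the 3 IL10_control mice the highest signal was 1.24 times the lowest for Nox1, 1.08 times for Nos2, 1.83 times for Cybb, 1.82 times for Ncf4 and 2.20 times for Pla2g2a. For the calprotectin subunit S100a8 it was 116 times, since the signal was 1712, 18686 and 161, and for the other 6 tested neutrophil markers it was between 3.24 times (Clec5a) and 83.2 times (S100a9). The log2 SD of Nos2 in this group was 0.05 and that of Nox1 0.15, against a panel median of 0.27, and 2.63% of tested genes had a smaller SD than Nos2. In the IL10_STAT mice Nos2 was less uniform, with a log2 SD of 0.44 against a panel median of 0.19. Its highest signal there was 1.83 times the lowest, no less than for Csf3r (1.55), Clec5a (1.59) and Cxcr2 (1.82), and below that for Il1r2 (1.92), S100a9 (3.79), S100a8 (4.57) and Camp. For Nox1 in the IL10_STAT mice it was 1.32 times, below that of each of these markers. These marker genes were named after their values were seen.

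Single mice stood out. IL10_control 3 had the lowest S100a8 of the IL10-labelled mice and also their lowest Ptgs2, the inducible prostaglandin synthase (84.1, against 414 to 1528 in the other 5). Its Cybb (678) and Ncf4 (175) were the lowest of its group and its Pla2g2a (408) the lowest of all 6, while its Nox1 (1733) and Nos2 (732) lay between those of its group mates. IL10_control 2 had the highest Ltf (58.9), and also the highest Camp, the cathelicidin of the same neutrophil granules (709, against 0.616 to 87.1 in the other 5). Camp was named after its values were seen.

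The 8 neutrophil markers in the table had a summed signal of 38.5 to 45.8 in the WT_control mice, 14.9 to 76.6 in the WT_STAT mice, 419 to 30133 in the IL10_control mice and 1991 to 7797 in the IL10_STAT mice. Of the 7 tested, 7 passed as higher under the control inoculum and 6 under STAT, beside 53.6% and 40% of the panel. These counts are largely fixed by the filter on low values. Csf3r, Cxcr2, Il1r2, Clec5a, S100a9 and Camp stayed under the signal floor in every C57-labelled sample. S100a8 exceeded it there only in WT_STAT 1 (24.4). The 7 markers were thus tested because of their IL10-labelled values, while Cxcr1, under the floor in every sample, was left out. S100a9 was at 0 in 4 of the 6 C57-labelled samples, Camp in 3, Cxcr2 in 2 and Cxcr1, Il1r2 and S100a8 in 1 each. The 7 macrophage and monocyte markers summed to 857 to 1080, 1103 to 1762, 2486 to 3329 and 2414 to 3023 in the same order of groups, and Marco alone was at 0 in any sample (5 of the 6 C57-labelled). Of these 7, 6 passed as higher under the control inoculum, and 4 passed as higher and 1 as lower under STAT, beside 40% and 11.6% of the panel. The part of either cell type in the rise of Cybb, Ncf4 and Ltf was not tested.

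**Figure D3:**
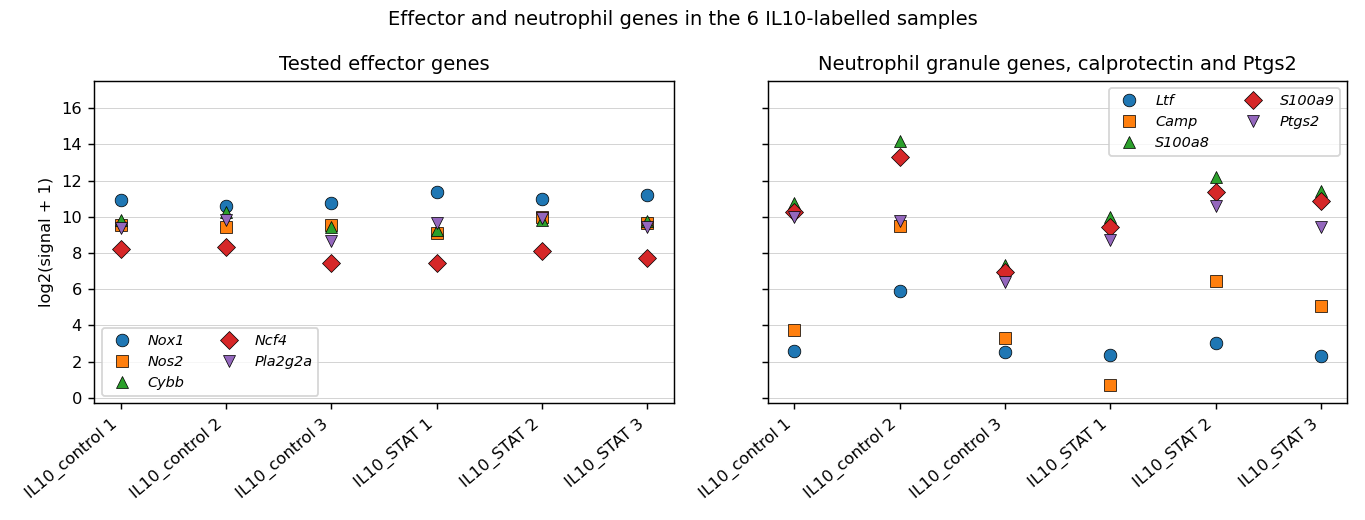
The log2(signal + 1) of the 5 tested effector genes (left) and of 5 genes of neutrophils and inflammation (right) in the 6 IL10-labelled mice, 1 point per mouse. Nox1 and Nos2 vary little in IL10_control (1.24 and 1.08 times), where S100a8 spans 116 times.

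STAT against control in C57-labelled ileum left no tested effector gene past the threshold, in a comparison where 0.875% of tested genes were called. Nox1 was 2.23-fold higher with STAT (1.16 ± 0.36 SE, 95% interval 0.36 to 1.96, n = 3 and 3, limma adjusted p = 0.125). Cybb was 1.92-fold higher (0.94 ± 0.31, interval 0.25 to 1.63, adjusted p = 0.144), and Ncf4 1.90-fold (0.93 ± 0.34, interval 0.17 to 1.68, adjusted p = 0.184). All WT_STAT samples lay above all WT_control samples for Nox1 and Cybb, 2 of the 5 genes, which held for 15.8% of tested genes. The margin for Nox1 was small, 34.7 in WT_STAT 3 against 32.7 in WT_control 3.

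Nos2 differed by -0.43 ± 0.34 with STAT in C57-labelled mice (interval -1.17 to 0.31, limma adjusted p = 0.581). For Pla2g2a both groups were under 20 and no size is given (limma adjusted p = 0.689). No tested effector gene passed by adjusted p, and 3 of 5 had an unadjusted p under 0.05, against 17.3% of tested genes. With array weights, which let the fit trust some samples less, Nox1 (1.48, adjusted p = 0.00851), Cybb (0.78, 0.0280) and Ncf4 (1.18, 0.0224) passed, but that estimation stopped before it converged and 83 genes passed in all. With median centring the 3 differences were 0.79, 0.57 and 0.56. The summed macrophage and monocyte markers above did not overlap between these groups either (857 to 1080 and 1103 to 1762), with 0 of 7 passing. The 5 plasma cell markers summed to 3717 to 4133 in WT_control and 4532 to 5318 in WT_STAT, and 2 passed as higher with STAT, Irf4 (3.29-fold, limma adjusted p = 0.0121) and Slamf7 (2.16-fold, 0.0315), which are 2 of the 4 panel genes called. Most of that sum was Xbp1, at 3527 to 3897 in WT_control and 4077 to 4793 in WT_STAT. Xbp1 did not pass (0.25 ± 0.17 SE, limma adjusted p = 0.503). The tested B cell markers had a median difference of 1.86 with 0 of 5 passing, and all B cell markers in the table summed to 101 to 286 and 178 to 846. Neutrophil (0 of 7), epithelial (0 of 5) and T cell (0 of 8) markers did not pass either, and the part of any cell type in these differences was not tested.

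In IL10-labelled ileum no effector gene passed for STAT against control, where 0% of tested genes passed by limma's adjusted p and 6.78% had an unadjusted p under 0.05. Nox1 was the gene whose groups did not overlap, with all STAT samples (2012 to 2649) above all control samples (1564 to 1936). Its difference was 0.42 ± 0.36 SE (1.33-fold, interval -0.38 to 1.22, n = 3 and 3, limma adjusted p = 0.842), and such a separation upwards held for 1.97% of tested genes. Nos2 differed by 0.06 ± 0.34 (interval -0.68 to 0.80), Pla2g2a by 0.40 ± 0.76 (-1.28 to 2.07), Cybb by -0.21 ± 0.31 (-0.90 to 0.48) and Ncf4 by -0.26 ± 0.34 (-1.02 to 0.49). The signs for Cybb and Ncf4 turned with median centring, to 0.065 and 0.013. The intervals include no change for each of the 5 genes, and they allow a fall in Cybb of up to 0.90 and a rise in Nox1 of up to 1.22 on the log2 scale.

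The difference between the STAT effects, IL10-labelled minus C57-labelled, was tested by itself, and 0 of the 5 genes passed, as did 0% of tested genes. Cybb had -1.15 ± 0.44 SE (limma adjusted p = 0.187, from 4 groups with n = 3) and Ncf4 -1.19 ± 0.49 (adjusted p = 0.192). Both had an unadjusted p under 0.05, as did 21.2% of tested genes. Nox1 had -0.74 ± 0.51 (adjusted p = 0.463) and Nos2 0.49 ± 0.47 (0.614), and no size is given for Pla2g2a (0.869). The median of all tested genes was -0.48, and with median centring Cybb and Ncf4 had -0.51 and -0.54.

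Of the 22 genes of the oxidative list 7 were in the table. Nox3 was at 0 in every sample and Nox4 was at 0.564 to 18.1, and the only other tested gene was Ptgs2, which rose 5.59-fold under the control inoculum (2.48 ± 0.81 SE, limma adjusted p = 0.0211) and 11.8-fold under STAT (3.56 ± 0.81, adjusted p = 0.00417). Ptgs2 read 1013, 885 and 84.1 in IL10_control, so IL10_control 3 lay within the WT_control range of 56.0 to 89.1. All 5 other tested genes of the secreted antimicrobial list passed as higher under the control inoculum and 4 did under STAT, beside 53.6% and 40% of the panel, while Cxcl9 alone passed for STAT against control in C57-labelled samples (1.38 ± 0.26 SE, limma adjusted p = 0.0315). They included Cxcl9 and Cxcl10, chemokines with antibacterial activity in vitro. These chemokines rose 68.8-fold and at least 15.7-fold under the control inoculum (limma adjusted p = 5.31e-08 and 1.52e-06). The count of passing genes is partly fixed by the filter on low values. Camp and S100a9 were under the signal floor in every C57-labelled sample, and S100a8 in all but WT_STAT 1. Cxcl10 was under it in WT_control and WT_STAT 1, and Cxcl9 was over it in every sample. Pla2g2e, Ltf, Defb1 and Defb14 did not pass the filter. In IL10_control Camp read 12.6, 709 and 9.03, so only IL10_control 2 was over the floor. Of the metal-withholding list, the transferrin receptor Tfrc rose 3.75-fold (1.91 ± 0.39, adjusted p = 0.00136) and the haemoglobin scavenger receptor Cd163 differed by -1.10 ± 0.45 (adjusted p = 0.0566). Under STAT Cd163 passed as lower (-3.61 ± 0.45, limma adjusted p = 0.000114). The calprotectin genes made up the other 2 of the 3 members that rose among the 4 tested.

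Among 23 tested cytokines, receptors and factors of the pathways known to induce such effectors, 11 passed as higher under the control inoculum and 10 under STAT, and none passed as lower in either. These shares are near the 53.6% and 40% of all tested genes. Among those that rose under the control inoculum were the cytokine Tnf (at least 8.33-fold, limma adjusted p = 3.57e-05) and the interferon regulatory factors Irf8 (3.01-fold, adjusted p = 6.68e-05) and Irf1 (2.57-fold, adjusted p = 0.000182). The median of the list was 0.76 against 1.01 for the panel. For STAT against control 0 of the 23 passed in either genotype label. Among other cell types, 8 of 8 T cell markers, 3 of 5 B cell, 3 of 5 plasma cell and 2 of 6 endothelial and stromal markers passed as higher under the control inoculum, and none as lower. Under STAT the numbers higher were 8, 0, 2 and 1, with 1 endothelial or stromal marker lower. The panel shares called higher, 53.6% and 40%, stand close to the B cell and plasma cell counts under the control inoculum.

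Profiles over the 12 samples were compared by the root mean square difference of log2(signal + 1) after each gene was centred on its own mean. Nearest to Nox1 were the interferon-induced chemokine Cxcl9 (0.49) and Nos2 (0.72). Nearest to Nos2 were Il10 (0.58) and Nox1 (0.72), and nearest to Pla2g2a were Nox1 (1.01) and Cxcl9 (1.15). Nearest to Cybb were the leukocyte integrin Itgal (0.19) and Csf2rb, a receptor chain for GM-CSF (0.22). Nearest to Ncf4 were the integrin chain Itgb2 (0.19) and the shared cytokine receptor chain Il2rg (0.20). The phagocyte genes lay nearest to leukocyte genes, and Nox1, Nos2 and Pla2g2a nearest to each other, Cxcl9 and Il10. How many of the 456 genes compared are leukocyte genes was not counted. The measure is a description over samples that fall into separate genotype clusters, so genes with genotype differences of like size tend to lie near each other. For Pla2g2a and Il10 it also rests on C57-labelled values of 0 to 9.20 and 0 to 1.02.

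**Figure D4:**
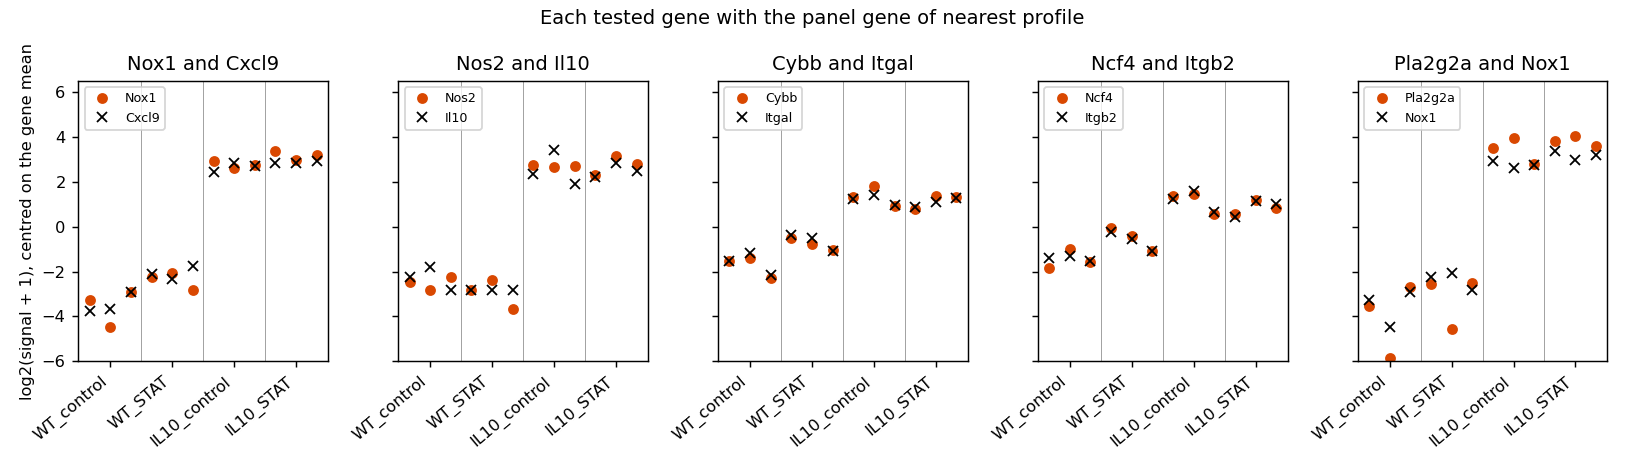
The log2(signal + 1) of each tested gene (circles) and of the gene nearest to it (crosses) in the 12 samples, each centred on its own mean over the samples; 3 samples per group between the vertical lines. Cybb with Itgal and Ncf4 with Itgb2 differ by 0.19 on average (root mean square), and Pla2g2a with Nox1 by 1.01.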

How the data were processed

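Values were taken as deposited: a normalized linear signal per gene for 12 samples of total RNA on a NanoString panel. The unit was read from the values, with normalization and software not given in the sources used here. Positive values of a sample lay whole steps above its lowest one in 100% of cases, within 0.01 counts, as background-subtracted counts times a factor would lie. Counts above background were the signal over that step. There were 0 columns of no sample. Groups came from the description labels, and replicate numbers follow record order.

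Genes that reached a signal of 20 in 3 or more samples (457, with 90 left out) were analysed as log2(signal + 1), so fold changes of low genes are understated, with limma 3.58.1 in R 4.3.3 (lmFit, eBayes, 1 coefficient for each of the 4 groups). P-values were adjusted by Benjamini-Hochberg over the 457 genes, with a threshold of 0.05. A group under 20 in all samples was set to 20 for a lower bound. The fit was tested on simulated data. The genes, lists and tests were chosen with earlier results of these data known. All 9 listed genes are described, with at most 4 other genes per list, those of smallest p under the control inoculum, and the 2 nearest profiles per gene; 1 gene that this rule names is not reported here.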

Additional observations from a re-analysis of the deposited data

How the results depend on the processing

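Both genotype comparisons kept the 5 calls and directions in every alternative run: median centring, quantile normalization, scaling on broadly expressed genes (added after seeing the data), a pseudocount of 20, no filter or a filter at 40, only the groups compared, array weights, a variance trend, and leaving out each sample; with no filter Ltf also passed under the control inoculum. Scaling on a housekeeping list was not run, since 0 of its genes were in the table. No paired analysis was possible because the replicate numbers only follow record order. Array weights gave 3 passing effector genes for STAT against control in C57-labelled samples and 3 for the difference between the STAT effects, against 0 in each; the cause was not tested.

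Of 520 recomputed differences, 12 changed sign, all from values that did not pass. For STAT against control in IL10-labelled samples, Cybb turned to 0.065 with median centring, 0.013 with scaling on broadly expressed genes and 0.012 without IL10_control 2 (from -0.42 with 1 sample left out), Ncf4 to 0.013 with median centring and 0.020 with quantile normalization, and Nos2 to -0.15 without IL10_STAT 2 (up to 0.29). In C57-labelled samples Pla2g2a turned to -0.11 without WT_control 2 (up to 1.48). For the difference between the effects, Nox1 turned to 0.15 with quantile normalization, and Pla2g2a to 0.24 with median centring, 0.31 with quantile normalization, 0.24 with a pseudocount of 20 and 0.51 without WT_control 2 (from -1.09); the C57-labelled Pla2g2a values behind these are under 20. The cause was not tested.

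Over the whole panel, the 4 calls for STAT in C57-labelled samples became 0 with any of the 3 other scalings or only the groups compared, 8 with the variance trend and 83 with array weights, and 0 to 44 when 1 sample was left out (44 without WT_STAT 3, 0 without WT_control 1 or WT_STAT 1). The 0 calls for the difference between the effects became 132 with array weights and 58 without WT_STAT 3, and those for STAT in IL10-labelled samples became 40 with array weights. At 0 to 7 counts above background, Pla2g2a in C57-labelled samples has only an upper bound.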
